A study of Rattus norvegicus with 5 samples.

Results

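The cytosolic ribosomal protein genes of the rat were measured here by 107 of the 41012 probes on the array, for 72 of its 35737 gene names. A probe was taken when its gene name in the array files, without its mapping suffix, was Rpl or Rps followed by a number, or was Rplp1, Rplp2 or Rpsa. Kinases named Rps6k and names of pseudogenes were left out, and no measured value entered this rule of names. The group itself was chosen with earlier results of these data known. The large subunit gave 41 genes with 64 probes and the small subunit 31 genes with 43 probes.

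The ribosome is built from ribosomal RNA and about equal amounts of each ribosomal protein, so the mRNAs of these proteins are among the most abundant in a cell. Most of them start with a cytosine and a run of pyrimidines, the terminal oligopyrimidine tract, through which mTOR signalling regulates their translation as a group. In the brain, ribosomal protein mRNAs are made by neurons and glia alike, and ribosomes are carried into dendrites for local protein synthesis.

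Neonatal hydrocephalus was induced with kaolin, a clay that obstructs the flow of cerebrospinal fluid. Rat pups were injected with kaolin or with saline on postnatal day 1, and parietal cortex was taken on postnatal day 22, which the labels call post-kaolin day 21. Total RNA was compared on 5 two-colour arrays, each holding 1 kaolin sample labelled with Cy3 and 1 saline sample labelled with Cy5. The labels name no strain, sex or site of injection and do not say whether a sample was a single animal, so p-values measure the spread between these arrays. The dyes were the same way round on all 5 arrays, so dye and treatment cannot be told apart.

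All values below are log2 ratios of kaolin over saline after loess normalization within each array, unless median centring is named. A value above 0 is a higher signal in the kaolin sample, and arrays are given in the order of replicates 1 to 5. In bulk tissue, a change in the share of a cell type and a change in RNA per cell cannot be told apart. Probes well above background numbered 27957 to 29386 per array for the kaolin samples and 27376 to 28935 for the saline samples. Replicate 2 stood apart from the others: over the 29118 probes tested, its ratios correlated with those of replicate 1 at -0.37, while replicates 1 and 3 correlated at 0.53. The labels state the same dyes for it, so its direction was kept. Results that rest on it are given with and without it, and with its sign turned.

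Ribosomal protein mRNAs were far brighter than most. Their average log2 intensity over both channels had a median of 14.5 and ranged from 7.06 to 17.0, against a median of 8.43 over all probes tested. Of the 107 probes, 95 lay in the brightest 10% of probes tested. All 107 were well above background in both channels on all 5 arrays, and none was saturated. Every member was therefore tested, and Rpl37a and Rpl3l were among the few dim ones.

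The first bases of the mRNAs are shown because the starting pyrimidine run is the sequence the group is known for, for 6 genes of the highest ratios among those with an entry and then the 4 genes of the lowest. A RefSeq promoter entry on build GRCr8 was found for 59 of the 72 genes. Each line gives 15 bases before and the first 15 bases after the annotated start, 5′ to 3′, with the unbroken run of C and T from the start in capitals.
Rps15, chr7:10068101-10068130, minus strand: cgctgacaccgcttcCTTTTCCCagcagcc
Rpl13a, chr1:104748899-104748928, minus strand: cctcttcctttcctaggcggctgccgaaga
Rps28, chr7:15311319-15311348, minus strand: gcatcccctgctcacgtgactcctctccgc
Rps27, chr2:177964592-177964621, minus strand: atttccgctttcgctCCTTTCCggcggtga
Rps4x, chrX:71342907-71342936, minus strand: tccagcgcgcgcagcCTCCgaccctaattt
Rpl39, chrX:121195882-121195911, minus strand: tcttctaatcgcgttCTTCCggcctgtcct
Rps23, chr2:23814502-23814531, plus strand: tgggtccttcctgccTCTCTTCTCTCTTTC
Rpl23, chr10:83272170-83272199, minus strand: actaacttcctttctgactctttccggacg
Rpl35, chr3:43165907-43165936, minus strand: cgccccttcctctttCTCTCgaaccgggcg
Rplp1, chr8:71290858-71290887, minus strand: gcaggcgcatgtgatCCTTTCCTCagctgc

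Runs of this kind stood at both ends of the ranking, in Rps15 and Rps27 as in Rplp1 and Rpl35. A start with C followed by at least 4 bases of C or T was found at the annotated start of 22 of 59 genes (37.3%), against 881 of 33469 promoter entries in RefSeq (2.63%). Allowing such a run within 10 bases on either side of the start, it was found in 41 of 59 genes (69.5%), against 7924 entries (23.7%). The annotated start and the run were offset in several genes: in Rpl13a and Rpl23 a run lay just before the annotated start, and in Rps23 the start fell on a T with pyrimidines on both sides of it. The 22 genes with the run at the start had a median log2 ratio of 0.19, and the 37 without it 0.21. For a run within 10 bases the order was the other way, with 0.21 for the 41 genes and 0.15 for the 18 without it. The sequence CCGGAA, the core that ETS family factors bind, searched on both strands over the 300 bases of the entry, occurred in 31 of 59 genes (52.5%) and in 5004 of 33469 entries (15.0%). Genes with it had a median log2 ratio of 0.18 and genes without it 0.21. A match describes letters in this window and not a working site.

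Ribosomal protein mRNAs read higher in kaolin than in saline cortex on replicates 1, 3, 4 and 5 and lower on replicate 2. The median over the 107 probes was 0.32 on replicate 1, -0.26 on replicate 2, 0.38 on replicate 3, 0.21 on replicate 4 and 0.37 on replicate 5. The mean of these medians was 0.20 ± 0.27 (SD, n = 5), so the spread between arrays exceeded the shift. The number of probes above 0 was 89, 9, 104, 93 and 103 of 107 on the 5 arrays, while 48.7% to 50.5% of all tested probes were above 0. Replicate 2 was thus the only array on which most members were below 0.

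**Figure D1:**
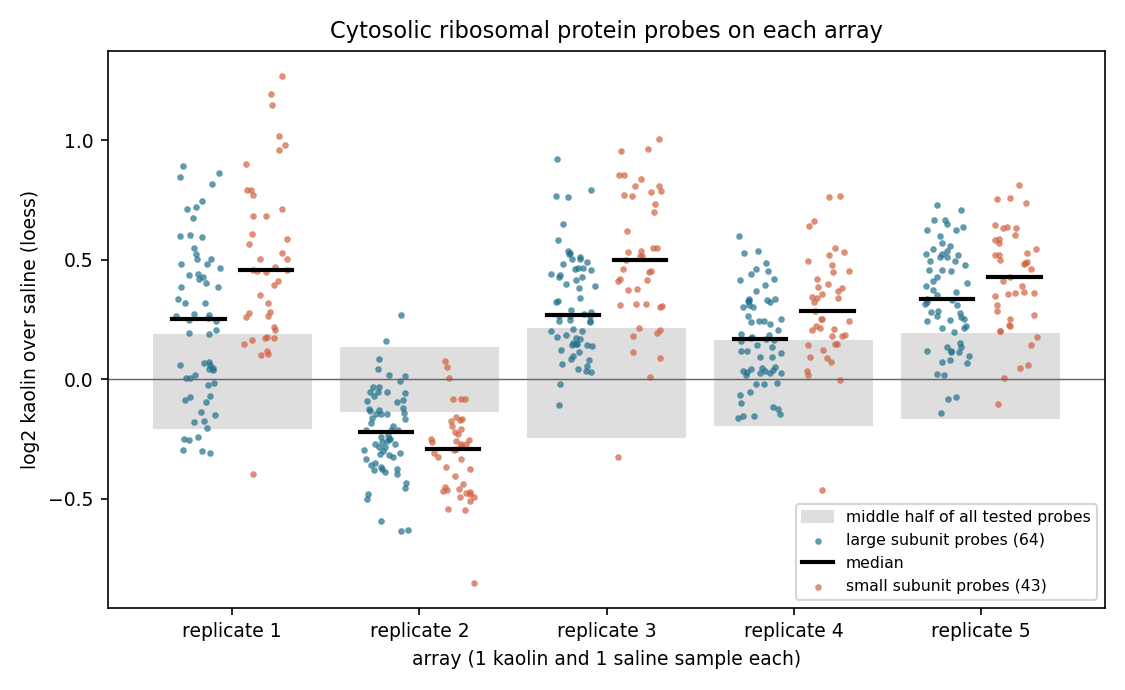
Log2 kaolin over saline after loess for each of 64 large subunit probes (blue) and 43 small subunit probes (orange) on each array; black bars are medians and grey boxes the middle 50% of all 29118 tested probes. The member medians lie above 0 on replicates 1, 3, 4 and 5 (0.21 to 0.38) and at -0.26 on replicate 2; with median centring in place of loess they are 0.07 to 0.22 and -0.56.

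No ribosomal protein probe passed an adjusted p of 0.05 in limma over the 5 arrays, and neither did any other probe (background 0%), the smallest adjusted p among members being 0.243. At an unadjusted limma p under 0.05, 29 of 107 probes (27.1%) were higher in kaolin, against 8.82% of all probes tested. Only Rps23 was lower at that threshold, against 9.32% of all probes. Of the brightest 10% of probes tested, members included, 11.4% were higher and 10.2% lower. The mean ratio was above 0 for 96 of 107 probes, against 49.2% of all probes. The pattern of higher on replicates 1, 3, 4 and 5 and lower on replicate 2 was shown by 76 of 107 probes (71.0%), against 12.2% of all probes. In the brightest 10%, 565 of 2912 probes showed it.

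Without replicate 2, 34 of 107 probes (31.8%), from 28 genes, were higher in kaolin at a limma adjusted p under 0.05, and none was lower. Over all tested probes, 2.41% were higher and 2.78% lower in the same fit. Among the brightest 10% of probes, members included, 5.80% were higher and 6.63% lower. The 34 probes had log2 ratios of 0.37 to 0.81 over the remaining 4 arrays and limma adjusted p-values of 0.0404 to 0.0498. On the array left out, 32 of the 34 were below 0. The members' median without replicate 2 was 0.32 ± 0.08 (SD, n = 4), and 102 of 107 means were above 0. With the sign of replicate 2 turned, 24 probes were higher and none lower at a limma adjusted p under 0.05, against 0.835% of all probes in each direction, and all 107 had a median of 0.31. Replicate 2 was singled out by its ratios in these same data, and 76 of 107 probes were below 0 on it alone. Leaving it out or turning it therefore favours higher calls among these probes by construction, here and for single genes below. Such counts and p-values are no independent support.

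The mean direction depended on how the arrays were normalized. Without loess, bright probes leaned towards the saline dye and dim probes towards the kaolin dye. With median centring in place of loess, the brightest 10% of probes, leaving out the members, had medians of -0.14, -0.24, -0.20, -0.10 and -0.28. The dimmest 10% had medians of 0.23, 0.05, 0.23, 0.11 and 0.12. On that scale the members had medians of 0.22, -0.56, 0.16, 0.08 and 0.07, a mean of -0.0073 ± 0.32 (SD, n = 5), and 54 of 107 probes had a mean above 0. From loess to median centring, 43 means turned from above 0 to below it and 1 the other way. At an unadjusted limma p under 0.05, 2 members were higher and 12 lower on that scale, against 10.7% and 15.1% of all probes. The sign of the median on each of the 5 arrays was the same on both scales. Against the brightest 10% of probes without members, on the median-centred scale, the members stood at 0.36, -0.33, 0.36, 0.18 and 0.34. Without replicate 2, median centring left 20 probes higher and 2 lower at a limma adjusted p under 0.05, against 5.07% of all probes higher and 9.27% lower.

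**Figure D2:**
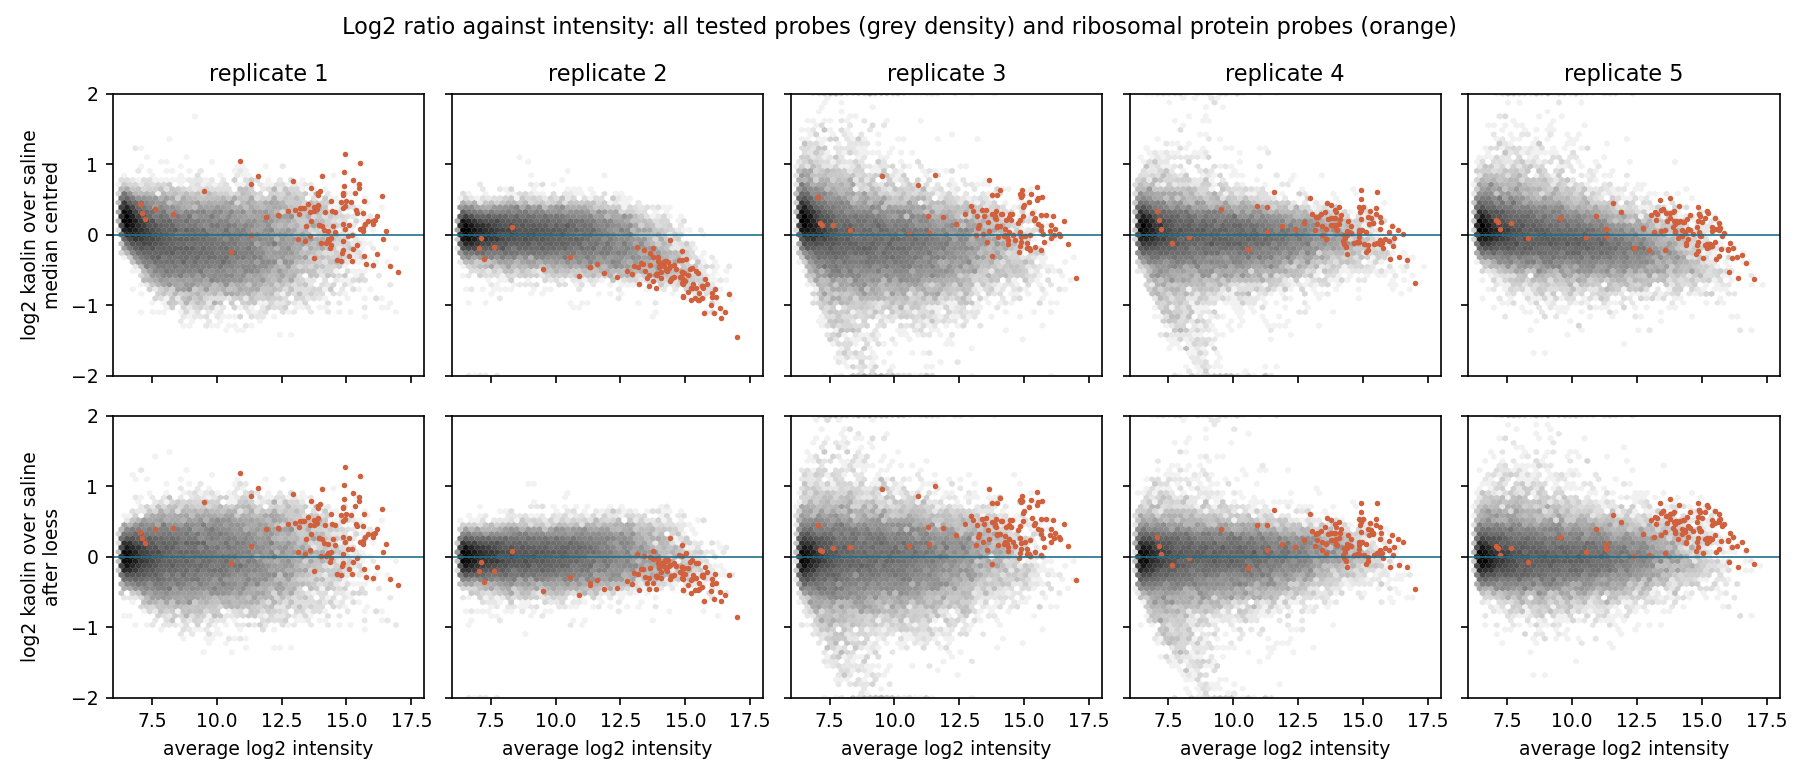
Log2 kaolin over saline against average log2 intensity on each array, with median centring (top) and after loess (bottom); grey shading is the density of all 29118 tested probes, clipped at 2 and -2, and orange points are the 107 ribosomal protein probes. With median centring the dimmest 10% of probes have medians above 0 and the brightest 10% below 0 on every array. On replicate 2 the ribosomal protein probes have a median of -0.56 with centring and -0.26 after loess, and on the other 4 arrays they lie mostly above probes of like intensity.

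Probes were also set beside others of like intensity, in bands chosen after the values were seen. Between 14 and 15 on the log2 intensity scale, 34 members differed from 535 other probes by 0.26, -0.19, 0.42, 0.17 and 0.43 in median after loess. Between 13 and 14, 23 members differed from 949 others by 0.45, -0.26, 0.40, 0.30 and 0.51. Replicate 2 was again the array below 0. Above 16, loess left the 89 other probes below 0 on every array, at -0.54, -0.22, -0.34, -0.31 and -0.21, and the 11 members there at 0.17, -0.49, 0.27, 0.09 and 0.15. A ratio below 0 for one of the very brightest probes, as for Rps23 and Rplp1, therefore lies where most probes were below 0.

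Among the members themselves, the ratio had little relation to intensity after loess. Pearson's r over the 107 probes, which share libraries and dyes, was -0.17, -0.14, -0.0006, -0.04 and 0.15 on the 5 arrays. With median centring it was -0.22, -0.65, -0.22, -0.26 and -0.37.

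Small subunit mRNAs stood further from 0 than large subunit mRNAs on every array. Small subunit probes had medians of 0.46, -0.29, 0.50, 0.29 and 0.43 (mean 0.28 ± 0.33, SD, n = 5). Large subunit probes had medians of 0.25, -0.22, 0.27, 0.17 and 0.33 (mean 0.16 ± 0.22, SD, n = 5). The difference, small minus large, was 0.20, -0.07, 0.23, 0.12 and 0.09, below 0 on replicate 2 as the group itself was. With median centring it was 0.20, -0.08, 0.19, 0.11 and 0.04. At an unadjusted limma p under 0.05, 16 of 43 small subunit probes (37.2%) and 13 of 64 large subunit probes (20.3%) were higher. That share was 8.82% over all tested probes and 11.4% over the brightest 10% of them. No test of the difference between subunits was made.

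The highest small subunit ratios belonged to proteins of different places on the subunit. Rps15, which lies in the head of the subunit and is needed to export its precursor from the nucleus, had 2 probes. The higher read 0.98, -0.33, 1.01, 0.66 and 0.59 (mean 0.58 ± 0.54, SD, n = 5; probe on rn4 chr7:10928409-10928778). Its raw mean signals were 3726, 2293, 3947, 3000 and 2778 in the kaolin channel and 3118, 3699, 3214, 2586 and 2545 in the saline channel. The kaolin signal was thus lowest and the saline signal highest on replicate 2. Its limma adjusted p was 0.243 over 5 arrays and 0.0404 without replicate 2, where its ratio was 0.81. With median centring its mean was 0.47. The other Rps15 probe read 0.77, -0.49, 0.95, 0.39 and 0.29 (mean 0.38 ± 0.56, SD, n = 5). Without replicate 2 that probe had a ratio of 0.60 and a limma adjusted p of 0.0527, and with median centring its mean was 0.31.

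Rps28, a small protein near the mRNA exit, was above 0 on all 5 arrays at 0.68, 0.01, 0.81, 0.53 and 0.75 (mean 0.56 ± 0.32, SD, n = 5). Rps4x, the X-linked form of the protein S4, was also above 0 on all 5, at 0.46, 0.08, 0.77, 0.52 and 0.81 (mean 0.53 ± 0.30, SD, n = 5). Both were near 0 on replicate 2. Their limma adjusted p was 0.243, and without replicate 2 it was 0.0404 for Rps28 and 0.0410 for Rps4x. With median centring the means were 0.31 and 0.33, and replicate 2 read -0.36 and -0.19.

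Rps27, which carries a zinc finger, read 0.79, -0.16, 0.97, 0.55 and 0.58 (mean 0.54 ± 0.43, SD, n = 5; probe on rn4 chr2:182451587-182451961). Of the 4 probes for Rps2, a protein near the mRNA entry, the highest read 0.59, -0.08, 0.70, 0.40 and 0.74 (mean 0.47 ± 0.33, SD, n = 5), and the lowest had a mean of 0.20. With median centring these means were 0.35 for Rps27 and 0.20 and -0.08 for Rps2. For Rps27 and Rps2 alike, replicate 2 was the only array below 0.

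Rps23, which sits at the decoding centre, went the other way from the group. It read -0.40, -0.85, -0.33, -0.46 and -0.10, below 0 on all 5 arrays (mean -0.43 ± 0.27, SD, n = 5; limma adjusted p = 0.243; probe on rn4 chr2:21047736-21047795). It was the only member below 0 on all 5 arrays, against 6.65% of all tested probes. It was also the brightest member, with raw saline signals from 182216 to 212824 and kaolin signals from 65214 to 96942. In its intensity range the medians of other probes were below 0 on every array, and the medians of members on replicate 2 alone. Replicate 2 was its lowest array, as it was for most members. With median centring its mean was -0.78.

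Members above 0 on all 5 arrays were 7 of 107 probes (6.54%), against 6.22% of all probes tested. Besides Rps28 and Rps4x these were 3 of the 4 probes for Rpl29, a basic protein of the large subunit, and the probes for Rpl38 and Rps29. The highest Rpl29 probe gave 0.07, 0.27, 0.25, 0.31 and 0.56 (mean 0.29 ± 0.18, SD, n = 5). Rps29, another zinc finger protein, had the least spread of all members, at 0.11, 0.05, 0.21, 0.02 and 0.05 (mean 0.09 ± 0.07, SD, n = 5). With median centring Rps29 was below 0 on all 5 arrays, at -0.02, -0.35, -0.02, -0.13 and -0.33 (mean -0.17). On that scale the 3 Rpl29 probes had means of 0.06, -0.03 and -0.05, so no direction was settled for Rps29, nor for Rpl29 as a gene.

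In the large subunit the highest ratios were those of Rpl13a and Rpl39. Rpl13a, a protein that can leave the ribosome and repress translation of inflammatory mRNAs, read 0.85, -0.09, 0.92, 0.54 and 0.65 (mean 0.57 ± 0.40, SD, n = 5; probe on rn4 chr1:95600834-95600893). Rpl39, which lines the exit tunnel for the growing protein, read 0.71, -0.14, 0.77, 0.45 and 0.66 (mean 0.49 ± 0.37, SD, n = 5). After loess, both were clearly above 0 on 4 arrays and slightly below it on replicate 2. Their limma adjusted p was 0.243 over 5 arrays and 0.0404 without replicate 2. The means were 0.29 for Rpl13a and 0.24 for Rpl39 with median centring, and replicate 2 then read -0.54 and -0.53.

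The lowest large subunit ratios came from very bright probes. Rpl23, at the face that meets the small subunit, read -0.30, -0.38, 0.21, -0.15 and -0.08 (mean -0.14 ± 0.23, SD, n = 5). Rpl35, at the exit of the tunnel, read 0.06, -0.63, 0.24, -0.12 and -0.14 (mean -0.12 ± 0.33, SD, n = 5), and its mean was 0.01 without replicate 2 and 0.03 from the software's own log ratios. Rplp1, an acidic protein of the stalk that recruits elongation factors, read -0.31, -0.26, 0.15, -0.15 and 0.10 (mean -0.10 ± 0.21, SD, n = 5), and 0.06 from the software's log ratios. For these 3 genes the arrays straddled 0, and their average log2 intensities were 16.0, 16.4 and 16.7. With median centring their means were -0.45, -0.44 and -0.43. The Rpl15 probe with the lower mean, at an intensity of 10.6, read -0.09, -0.29, 0.15, -0.16 and 0.07 (mean -0.06 ± 0.18, SD, n = 5), and its mean was -0.16 with median centring.

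**Figure D3:**
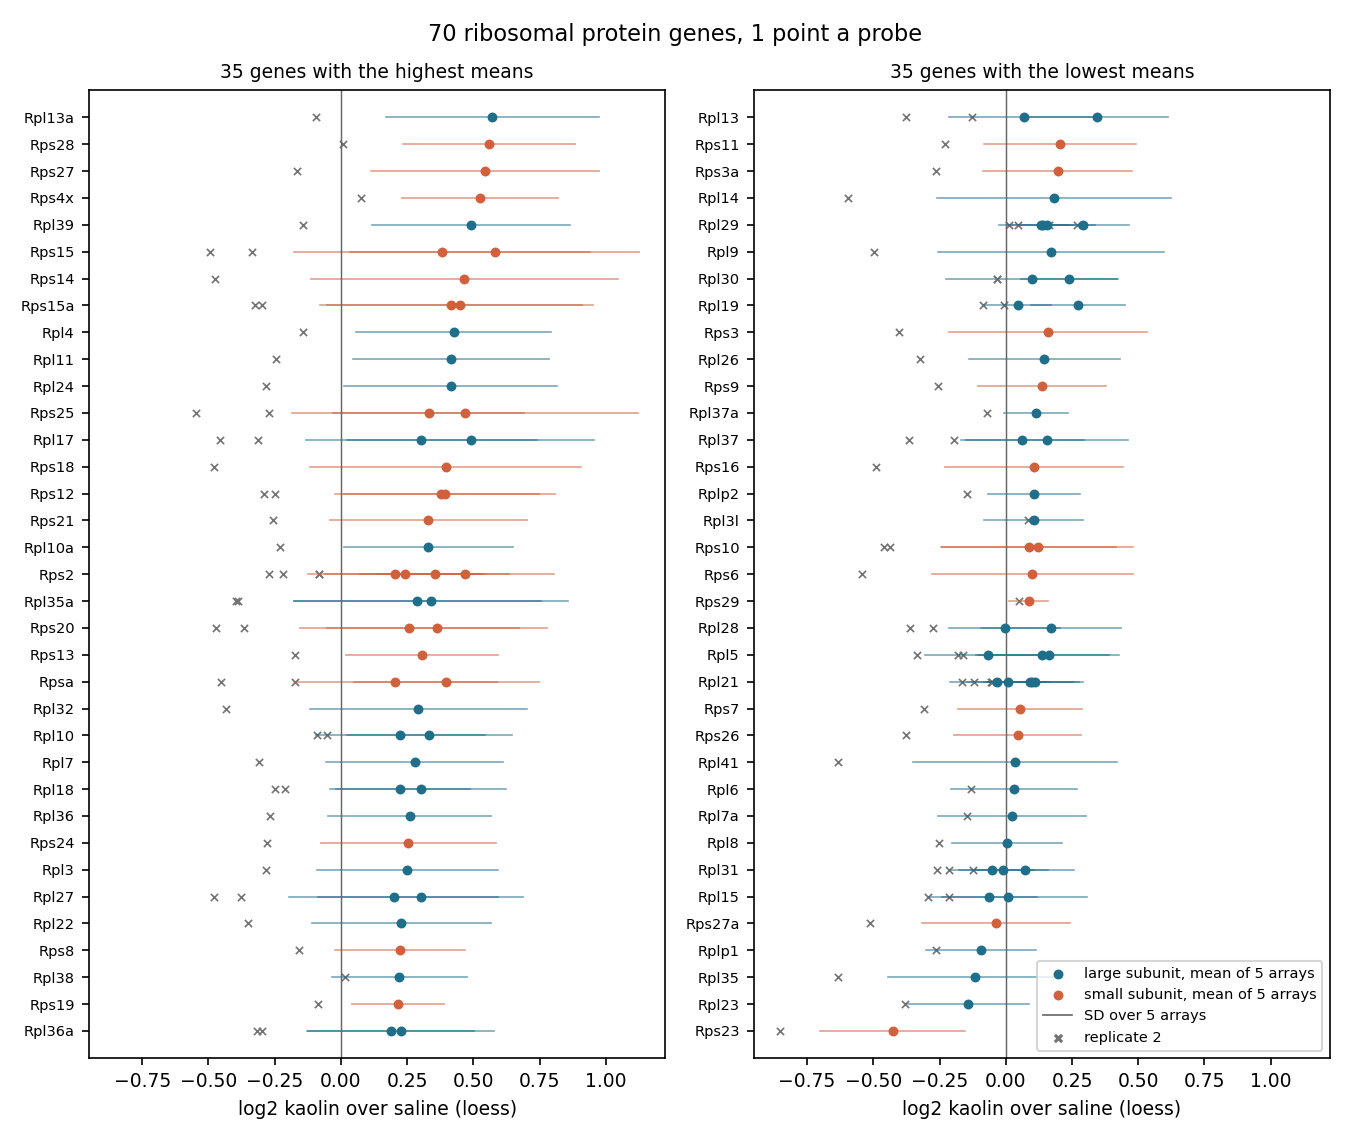
Mean log2 kaolin over saline after loess with its SD over 5 arrays for the probes of 70 genes, in rows by gene, ordered by the gene's mean; large subunit in blue, small subunit in orange, and grey crosses mark replicate 2. Means run from -0.43 (Rps23) to 0.58 (Rps15), and of all 107 probes 96 have a mean above 0; with median centring 54 do.

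The other stalk protein on the array, Rplp2, read 0.04, -0.15, 0.26, 0.11 and 0.27 (mean 0.11 ± 0.17, SD, n = 5), and its mean was -0.14 with median centring. Rplp0, which anchors both to the ribosome, was not analysed here. Rpsa, the laminin receptor and a protein of the small subunit, had a probe at 0.50, -0.17, 0.53, 0.37 and 0.76 (mean 0.40 ± 0.35, SD, n = 5). Its other probe read 0.40, -0.45, 0.41, 0.18 and 0.49 (mean 0.21 ± 0.38, SD, n = 5), with replicate 2 as the only array below 0 in both. The 2 means were 0.22 and 0.08 with median centring.

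Rpl5 and Rpl11 bind the 5S ribosomal RNA together and, when free, the p53 regulator Mdm2. Rpl11 read 0.60, -0.24, 0.65, 0.53 and 0.55 (mean 0.42 ± 0.37, SD, n = 5). The 3 probes for Rpl5 had means of -0.07, 0.14 and 0.16, and their values on replicate 5 were 0.26, 0.51 and 0.52. The 2 probes with means above 0 turned to -0.07 and -0.06 with median centring, so no direction was settled for Rpl5. Rpl11 had a mean of 0.16 with median centring, and after loess without replicate 2 it was at 0.58 with a limma adjusted p of 0.0404.

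Rps6, the substrate of the S6 kinases, read 0.17, -0.54, 0.46, 0.21 and 0.20 (mean 0.10 ± 0.38, SD, n = 5), and its mean was -0.23 with median centring. Its average log2 intensity was 16.5. Rps3, at the mRNA entry and also a DNA repair factor, read 0.27, -0.40, 0.12, 0.18 and 0.63 (mean 0.16 ± 0.37, SD, n = 5), and -0.10 with median centring. Rps19, the gene most often mutated in Diamond-Blackfan anaemia, read 0.26, -0.08, 0.31, 0.24 and 0.36 (mean 0.22 ± 0.17, SD, n = 5). On replicates 1, 3, 4 and 5 its values lay close together, and the same was so for Rpl10a at 0.48, -0.23, 0.51, 0.37 and 0.52 (mean 0.33 ± 0.32, SD, n = 5). With median centring Rps19 had a mean of 0.01 and Rpl10a of 0.16.

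Rpl38, known for its part in translating Hox mRNAs, read 0.59, 0.02, 0.38, 0.03 and 0.08 (mean 0.22 ± 0.26, SD, n = 5), high on replicates 1 and 3 alone, and its mean was -0.02 with median centring. Rpl10, which joins the large subunit late in its assembly, had probes with means of 0.33 ± 0.31 and 0.22 ± 0.32 (SD, n = 5), which were 0.12 and -0.04 with median centring. Rpl7, a core protein of the large subunit, had a mean of 0.28 ± 0.33, and Rpl22, an RNA-binding protein at its surface, 0.23 ± 0.34 (SD, n = 5). With median centring Rpl7 was at 0.0037 and Rpl22 at 0.08.

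A muscle paralogue could be set beside its partner. Rpl3, a protein next to the peptidyl transferase centre, read 0.25, -0.28, 0.46, 0.21 and 0.62 (mean 0.25 ± 0.34, SD, n = 5). Rpl3l, its form in heart and skeletal muscle, read 0.40, 0.08, 0.14, -0.02 and -0.08 (mean 0.11 ± 0.19, SD, n = 5). Rpl3l was 1 of the 9 probes above 0 on replicate 2, and its average log2 intensity was 8.30. The means were 0.07 for Rpl3 and 0.08 for Rpl3l with median centring. The paralogues Rps27l, Rpl22l1, Rpl39l, Rpl10l, Rpl7l1 and Rps4y2 were not analysed here. Rack1, a signalling scaffold bound to the small subunit and listed on the array as Gnb2l1, is no member but read alike: 0.15, -0.29, 0.25, 0.16 and 0.58 (mean 0.17 ± 0.31, SD, n = 5).

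Different probes of the same gene gave close values. Of 26 genes with more than 1 probe, 21 had all their means on the same side of 0, and Rpl5, Rpl15, Rpl21, Rpl28 and Rpl31 did not. The widest range was 0.28, between the Rpl13 probes at 0.07 and 0.34, which were at -0.21 and 0.13 with median centring. The median absolute difference was 0.10 over 49 pairs of probes of the same gene and 0.17 over 5622 pairs of probes of different genes. Ribosomal protein genes have many processed copies in the genome, and a probe can bind their transcripts too. Of 86 probes placed on a chromosome in both, 15 from 9 genes lay on another chromosome in the array files (rn4) than the gene's RefSeq start (GRCr8), so that Rps28, a chromosome 7 gene, had its probe at chr16:71191457-71191516 and Rpl38, a chromosome 10 gene, at chr2:192135741-192135800. Values of these genes may include transcripts of copies.

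Which ribosomal protein mRNAs stood highest was similar on replicates 1, 3 and 4. Across the 107 probes, which share their libraries and dyes, Pearson's r was 0.85 between replicates 1 and 3, 0.83 between 1 and 4, and 0.83 between 3 and 4. Over all tested probes the values were 0.53, 0.48 and 0.83, so the last was no higher among members. Replicate 5, the only array on the other slide, gave 0.54 with replicate 4, 0.41 with 3 and 0.24 with 1. Replicate 2 gave -0.24 with replicate 1, -0.12 with 3, -0.02 with 4 and 0.30 with 5. With the brightest probe of each of the 72 genes these were -0.04, 0.07, 0.11 and 0.32. With median centring the values for replicate 2 were -0.03, 0.09, 0.20 and 0.52. Replicate 2 was thus lower for the group as a whole, while the order of genes on it was related to that on the other arrays weakly or not at all after loess.

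**Figure D4:**
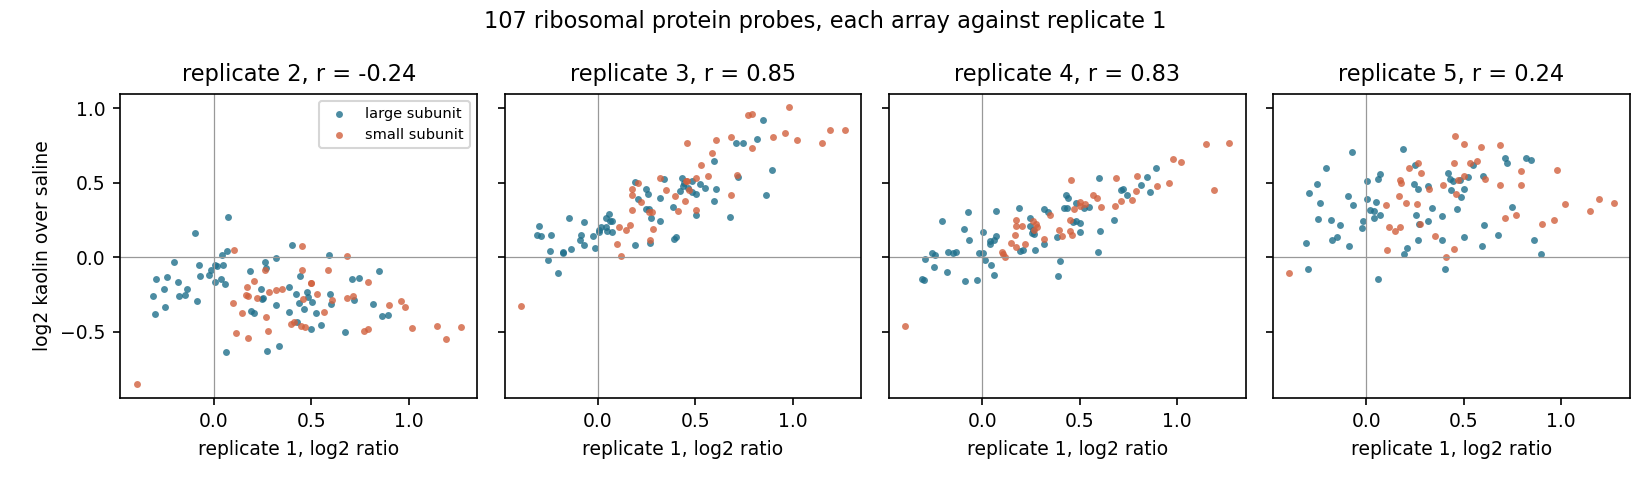
Log2 kaolin over saline after loess of the 107 ribosomal protein probes on replicates 2 to 5 against replicate 1, with Pearson's r across probes above each panel; blue points are large subunit and orange points small subunit. Replicates 3 and 4 follow replicate 1 (0.85 and 0.83), replicate 5 does so less (0.24), and replicate 2 lies below 0 with r at -0.24, or at -0.03 with median centring.

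A further 320 tested probes are described in the array files as a ribosomal protein or similar to 1 but carry other gene names, and were set beside the members after the values had been seen. Their medians were 0.24, -0.23, 0.26, 0.15 and 0.32, and 265 of 320 means were above 0. At an unadjusted limma p under 0.05, 60 were higher (18.8%) and 4 lower (1.25%), against 8.82% and 9.32% of all probes. Without replicate 2, 74 were higher (23.1%) and 1 lower at a limma adjusted p under 0.05, against 2.41% and 2.78%. These probes may measure the same transcripts as the members, so they are not independent of them. With median centring, 177 of 320 means were above 0.

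Other genes of protein synthesis were counted by their brightest probe, and none passed a limma adjusted p of 0.05 over 5 arrays. Without replicate 2, 1 of 61 mitochondrial ribosomal protein genes and 1 of 50 translation factors were higher at that adjusted p. The same held for 0 of 36 ribosome biogenesis genes and 1 of 26 mTOR and S6 kinase genes. None was lower, against 2.41% higher and 2.78% lower over all tested probes. Mitochondrial ribosomal proteins, which translate the mitochondrial genome, had medians of 0.39, -0.24, 0.17, 0.12 and 0.03 over 61 genes (mean 0.09 ± 0.23, SD, n = 5), with 47 means above 0. At an unadjusted limma p under 0.05, 4 of them were higher (6.56%, against 8.82% of all probes) and none lower (9.32% of all probes), among them Mrpl43 at 2.77, 2.03, 0.87, 0.72 and 0.55 and Mrpl46 at 0.63, -0.20, 0.47, 0.50 and 0.48. Mrpl43 was above 0 on all 5 arrays, replicate 2 included. Mrpl17 had a mean of 0.26 ± 0.23 (SD, n = 5). With median centring, the mean of the mitochondrial medians was -0.014.

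Translation initiation and elongation factors had medians of 0.07, -0.08, 0.18, 0.12 and 0.16 over 50 genes (mean 0.09 ± 0.10, SD, n = 5), with 8 higher (16.0%) and 2 lower (4.0%) at that threshold. The shares over all probes tested were 8.82% higher and 9.32% lower. Eef1g, a subunit of the factor that reloads elongation factor 1A and an mRNA known for the same kind of start, read 0.17, 0.22, 0.56, 0.33 and 0.35. It was above 0 on replicate 2, unlike most ribosomal proteins. Eif2s3x, a subunit of the factor that brings the initiator tRNA, had a mean of 0.55 ± 0.50 and Eif3l, a subunit of a scaffold for initiation, 0.22 ± 0.11 (SD, n = 5). With median centring, the mean of the medians of this list was -0.055.

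Genes of ribosome biogenesis and RNA polymerase I stayed near 0, with a mean of medians of 0.02 ± 0.02 (SD, n = 5) over 36 genes. At the same threshold 1 was higher (2.78%) and 2 were lower (5.56%), both shares below those of all probes. Pes1, which processes ribosomal RNA of the large subunit, had a mean of 0.25 ± 0.16, Polr1b, a catalytic subunit of RNA polymerase I, -0.20 ± 0.15, and Ddx10, an RNA helicase of the nucleolus, -0.20 ± 0.17 (SD, n = 5). With median centring the mean of medians was -0.073.

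Genes of mTOR and S6 kinase signalling had a mean of medians of 0.04 ± 0.06 (SD, n = 5) over 26 genes, with 5 higher (19.2%) and none lower at an unadjusted limma p under 0.05. Of all probes tested, 8.82% were higher and 9.32% lower. Eif4ebp1, the repressor of cap-dependent initiation that mTOR inactivates, read 0.35, 0.16, 1.11, 0.66 and 0.68. Rps6ka1, a kinase of the RSK family that can phosphorylate Rps6, read 0.19, 0.29, 1.20, 0.83 and 0.76, and Sesn1, an inhibitor of mTOR, had a mean of 0.37 ± 0.27 (SD, n = 5). Eif4ebp1 and Rps6ka1 were above 0 on all 5 arrays, while the ribosomal protein median was below 0 on replicate 2.

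**Figure D5:**
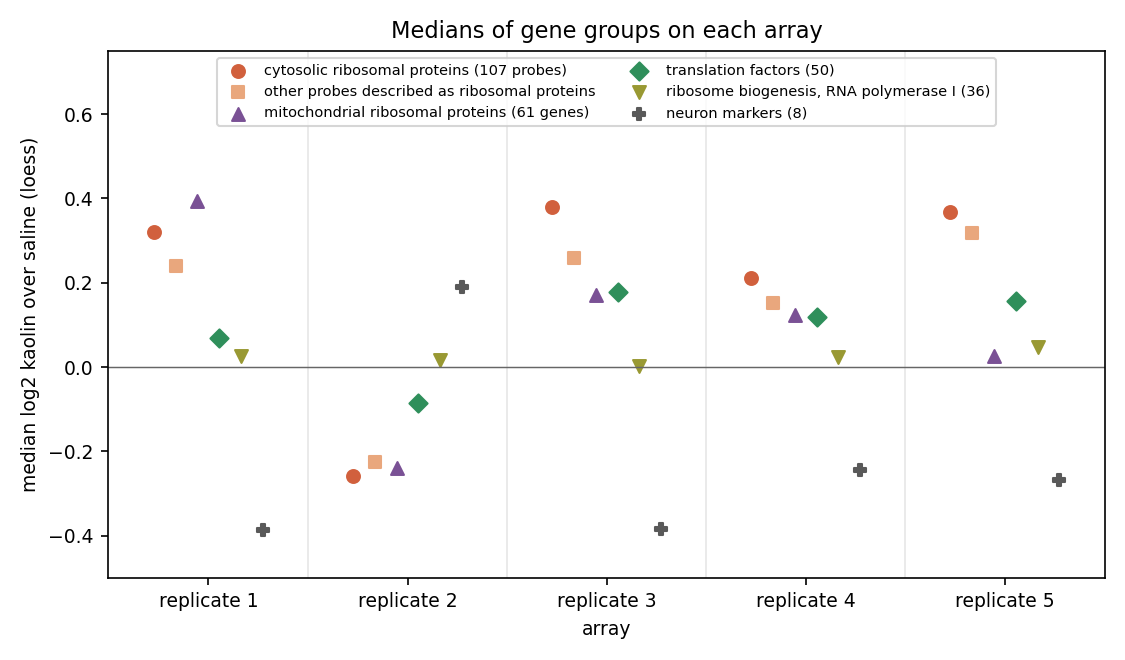
Median log2 kaolin over saline after loess on each array for the 107 ribosomal protein probes, 320 other probes described as ribosomal proteins, 3 other gene lists and 8 neuron markers. Ribosomal proteins, the probes so described, mitochondrial ribosomal proteins and translation factors are below 0 on replicate 2 and above it on the others, and neuron markers are the reverse; with median centring the mean of the medians is -0.0073 for ribosomal proteins and -0.39 for neuron markers.

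Markers of cell types also differed between arrays. All 8 neuron markers were tested, and Snap25 and Eno2 were among the bright probes, at average log2 intensities of 15.5 and 15.0. Neuron markers had medians of -0.39, 0.19, -0.38, -0.24 and -0.27, of opposite sign to the ribosomal protein median on every array, and 7 of the 8 means were below 0. Rbfox3, which marks neuronal nuclei, read -0.71, 0.39, -0.62, -0.28 and -0.43, and was above 0 on replicate 2 alone. The 7 microglia markers tested had medians of -0.01, 0.08, 2.22, 1.66 and 2.35 and all 7 means above 0. The 7 astrocyte markers had medians of 0.04, 0.23, 0.44, 0.01 and 0.25, but 4 of the 7 means were below 0. The 6 oligodendrocyte markers had medians of 0.25, 0.11, 0.01, 0.24 and -0.63, with 3 means above 0 and 3 below. The 4 choroid plexus markers tested, for a tissue that lies outside the cortex, had medians of -1.59, -1.09, -1.85, -0.57 and 0.04, with Ttr at a mean of -2.85 ± 1.80 (SD, n = 5). The part of cell composition in the ribosomal protein values was not tested.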

How the data were processed

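Total RNA of parietal cortex was read from 5 two-colour Agilent rat arrays, scanned with Agilent Feature Extraction 10.1.1.1. Raw intensity was taken as each channel's mean spot signal and local background, per the file headers. The deposited processed signals are intensity values that the software corrected for background and for dye (linear and lowess), and its deposited ratio is a log10 of saline over kaolin. Per the headers of the deposited files, the flags used are other values that are 0 or 1. The authors' series matrix gives log2 ratios that run as kaolin over saline, since its correlation with the log10 ratios was -1.00 to -0.978, and its columns have medians of 0.02, -0.05, -0.02, 0.09 and -0.10. How the authors normalized those log2 values was not given in the sources used here.

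Outlier spots (86 to 147 per array) were left out. Signals were corrected with normexp (offset 50) and loess, in which control spots had no weight, and repeat spots of a probe were averaged. Tested were the 29118 probes that stood well above background in either channel on 3 or more arrays. limma 3.58.1 (R 4.3.3) fitted the mean ratio against 0, two-sided. P-values were adjusted by Benjamini-Hochberg over all tested probes, with a threshold of 0.05. The script was tested on simulated data. Replicates 1 to 4 lay on slide 1 and replicate 5 on slide 2. The number of arrays limits the precision.

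Genes are named by the array files. Probes named Rpl36a carry the accession of Rpl36al1 in RefSeq, and 1 Rpl37 probe that of Rpl37l1. Probe positions are those of the files on rn4, and no gene models of that build were used, so exons and UTRs are not given. Per-array values are given for a list of proteins with known roles and paralogues (18 of 25 on the array), the 6 probes with the highest and the 6 with the lowest mean, the 6 with the smallest p, and the 3 genes of smallest p in each related list. Rps29, Rpl29, Rpl13 and individual cell type markers were named after their values were seen. Members, lists and markers were chosen with earlier results of these data known, so no list was tested as a set. Per-gene values of 2 members are not reported here.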

Additional observations from a re-analysis of the deposited data

Results flagged for a closer look

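In 8 of 38 sets of 5 array values examined, 1 array lay far from the other 4, judged by its gap to the nearest value against the whole range, and in all 8 that array was replicate 2. Chance alone gives such a gap in about 1 in 20 sets, and the sets share arrays, so they are not independent. The median over all ribosomal protein probes was -0.26 on replicate 2 and the median over small subunit probes -0.29, against values above 0 on the other 4 arrays. Among single genes, Rpl11 was at -0.24 there, Rpl10a at -0.23, Rpl7 at -0.31, Rpl22 at -0.35, Rps19 at -0.085 and Rps6 at -0.54. Each of these 6 genes was above 0 on replicates 1, 3, 4 and 5. The labels give replicate 2 the same tissue, age, treatments and dyes as the other arrays.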

How the results depend on the processing

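The median over ribosomal protein probes, 0.20, was -0.0073 with median centring, 0.27 from processed signals, 0.31 with the sign of replicate 2 turned and 0.16 to 0.32 leaving out each array. Means above 0 numbered 96 of 107, 54 with median centring and 87 to 102 leaving out each array. Probes at a limma adjusted p under 0.05 numbered 0, and 29 with array weights (28 higher and 1 lower, against 5.31% and 6.63% of all probes; the weights were 0.81, 0.46, 1.38, 2.36 and 0.82), 24 with the sign of replicate 2 turned, 22 with median centring without replicate 2 (an alternative chosen after seeing the data, as was loess without these probes), and 0 to 34 leaving out each array, the 34 without replicate 2. Probes higher at an unadjusted p under 0.05 numbered 29, and 2 with median centring (12 lower), 60 with array weights, 75 with the sign turned, and 8 to 70 leaving out each array, the 70 without replicate 2. Of all probes, 8.82% were higher at that threshold, 10.7% with median centring, 16.8% with array weights, 14.6% with the sign turned and 15.1% without replicate 2. The lowest count, 8, came without replicate 3, where the share of all probes was 3.29%.

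With median centring 43 of the 96 means above 0 fell below it. Among the 31 probes named by rule, 7 did so: Rpl10 at -0.045, Rpl38 at -0.024, Rpl5 at -0.061 and -0.071, Rps3 at -0.10, Rplp2 at -0.14 and Rps6 at -0.23. Without replicate 2 as well, Rplp2 was at -0.046 and Rps6 at -0.011. From processed signals Rplp1 was at 0.066 and Rpl35 at 0.027. From the software's log ratio and the series matrix they were at 0.065 and 0.027. Rpl35 ranged from -0.21 to 0.011 leaving out each array, the latter without replicate 2. With the sign of replicate 2 turned, Rpl5 was at 0.066, Rplp1 at 0.0097, Rpl23 at 0.011, Rpl35 at 0.14 and Rpl15 at 0.055. The cause was not tested.

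No background subtraction, normexp without an offset, either filter on dim probes, loess without these probes and the slide as a random block (consensus correlation -0.09) left 0 probes at a limma adjusted p under 0.05 and turned no sign among the 31. Under these 6 settings, 23 to 38 probes were higher at an unadjusted p under 0.05, against 7.64% to 12.3% of all probes. The brightest probe per gene, run for the count and the group median alone, left 0 genes at that adjusted p. The ratio on each array is itself a pairing of 1 kaolin with 1 saline sample, and no further samples share its replicate number for a block.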
